A study of Mus musculus with 4 samples.

Results

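The Spata genes (spermatogenesis associated) are a group that shares a name and not a common ancestor: most were named because their RNA was first found in testis. Here the members were every gene of the deposited table whose symbol was Spata followed by a digit, except Spata22, which was not analysed here. The rule found 27 of the 23980 genes listed, and it used no measured value. RNA levels were read in spermatocytes of the leptotene/zygotene (L/Z) stage, at the start of meiosis, purified by FACS (fluorescence-activated cell sorting) from F1 hybrid mice of the strains C57BL6/J and MSM/Ms at 3-4 weeks after birth. There were 4 polyA(+) libraries, 1 each of the genotypes Dnmt3L_Het, Pld6_WT, Dnmt3L_KO and Pld6 KO. Dnmt3L Het is a heterozygote of the Dnmt3L line and Pld6 WT a wild type of the Pld6 line, and these 2 libraries served as controls for the 2 knockout (KO) libraries. PLD6 is a nuclease needed to make the piRNAs of the germ line, and DNMT3L is a partner of the enzymes that lay down DNA methylation in male germ cells. The study describes mutant testes at this age as having no germ cells beyond the zygotene stage, whereas wild-type testes hold germ cells up to spermatids. No mutant genotype has a replicate library, so no mutant value has a replicate check, and the spread given is that between the 2 controls, which differ in line and genotype.

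Spermatogenesis runs from spermatogonia through meiosis to round spermatids and then to sperm with a condensed head, an acrosome (the enzyme sac that opens at fertilization) and a tail whose midpiece is wrapped in mitochondria. Many Spata genes are transcribed late on this path, in pachytene spermatocytes or spermatids, and their proteins build these sperm structures. Others, such as Spata5 or Spata2, are used in most cells of the body. The members were therefore ordered by role into 6 with roles outside sperm, 5 of the sperm tail and its mitochondria, 2 of the sperm head and acrosome, 9 other testis members and 5 of the Spata31 group, whose genes are related copies.

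In each mutant 15 of the 27 members (55.6%) were lower than both controls, and 0 were higher. A gene counts as lower or higher here when its FPKM + 1 (fragments scaled to transcript length and library depth, with 1 added to damp low values) differs from that of each control by over 2-fold in the same direction. Over all 23980 genes the share that was lower by this rule was 5.41% (Pld6 KO) and 5.78% (Dnmt3L KO), and the share that was higher was 1.04% and 2.14%. The change of a gene was the log2 ratio of its mutant FPKM to the control mean, each with 1 added. The median change of the members was -2.08 (Pld6 KO) and -2.19 (Dnmt3L KO), beside a median of 0.0 over all genes in each mutant. Without Dnmt3L Het these medians were -1.33 and -1.47. Of the 15 members in each mutant, 14 were the same genes, and the mutants share both controls, so these are not independent counts. Spata6 was the member lower in the Pld6 KO alone and Spata25 the one lower in the Dnmt3L KO alone by this rule. All 15 were among the 23 members with a mean of at least 1 FPKM over the 4 libraries. The rule needs over 1 FPKM in each control, so the 15 pass this filter largely through their control levels. Among the 14416 genes with a mean of at least 1 FPKM, 8.57% (Pld6 KO) and 9.16% (Dnmt3L KO) were lower.

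The role groups were set from general knowledge, with earlier results of these data known. The lower members were found in the groups with roles in testis and sperm. In Pld6 KO they were 5 of 5 tail and mitochondria members, 1 of 2 head members, 8 of 9 other testis members and 1 of 5 of the Spata31 group. In Dnmt3L KO these counts were 4 of 5, 1 of 2, 9 of 9 and 1 of 5. None of the 6 members with roles outside sperm was lower by this rule in a mutant. Of these, Spata2l was 2.48-fold below the lower control in Pld6 KO and missed the rule because 1 FPKM is added. All 27 members reached 1 FPKM in Dnmt3L Het and 23 did in Pld6 WT, whereas 14 reached it in Dnmt3L KO and 12 in Pld6 KO. Fewer cells of a type and less RNA per cell cannot be told apart in such bulk libraries.

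**Figure D1:**
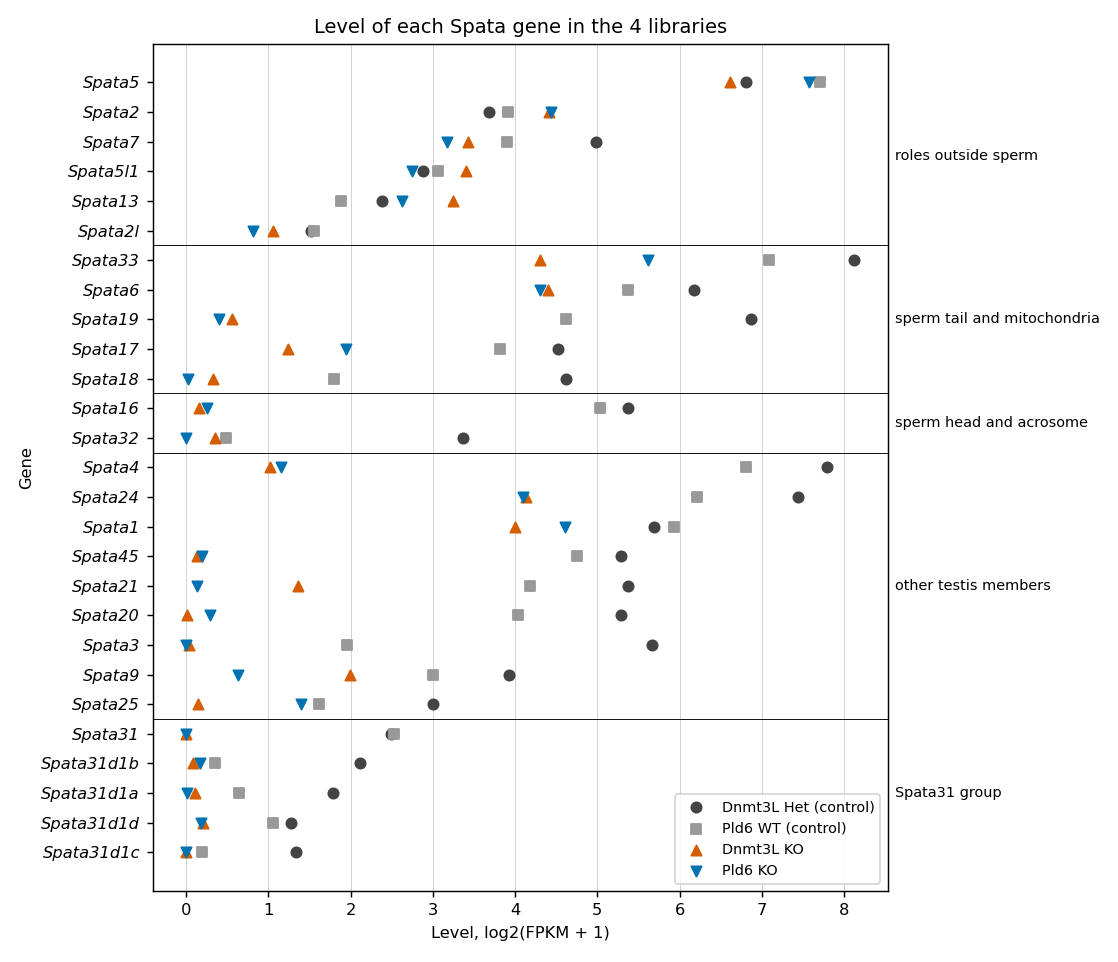
Level of each of the 27 Spata genes as log2(FPKM + 1) on the horizontal axis, 1 point per library, with genes grouped by role and ordered by mean level within a group. The points of both KO libraries lie at the left for most tail, head and other testis members (Spata16 at 0.118 and 0.196 FPKM against 40.5 and 31.8 in the controls), and close to the control points for Spata5.

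Marker genes of cell types were read in the same libraries, and only the spermatid and pachytene lists were mostly lower in both mutants. The 16 spermatid markers summed to 7625 FPKM in Dnmt3L Het, 254.2 in Pld6 WT, 16.5 in Dnmt3L KO and 12.8 in Pld6 KO, and 15 of 16 were lower in each mutant. In Dnmt3L KO 4 of the 16 were at 0 (Smcp, Cabs1, Tssk3 and Actl7b) and in Pld6 KO 3 of the 16 (Cabs1, Fscn3 and Acrv1). The 12 pachytene markers summed to 1197, 633.9, 36.6 and 35.4 FPKM in the same order, with 10 of 12 lower in each mutant. The 16 L/Z markers, which mark the sorted stage, were present in all libraries, at sums of 1929 FPKM in Dnmt3L Het, 3315 in Pld6 WT, 1192 in Dnmt3L KO and 1974 in Pld6 KO. The lower ones were 0 of 16 in Pld6 KO (median change -0.38) and 2 of 16 in Dnmt3L KO (median change -1.12). Between the controls, 8 of 16 were over 2-fold lower in Dnmt3L Het than in Pld6 WT, beside 904 of all 23980 genes. The 14 Sertoli cell markers summed to 5629 and 7472 FPKM in Dnmt3L Het and Dnmt3L KO and to 251.0 and 577.6 FPKM in Pld6 WT and Pld6 KO. The 14 spermatogonium markers summed to 795.6 to 1117 FPKM. The part of these cells in the levels of the Spata genes was not tested.

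**Figure D2:**
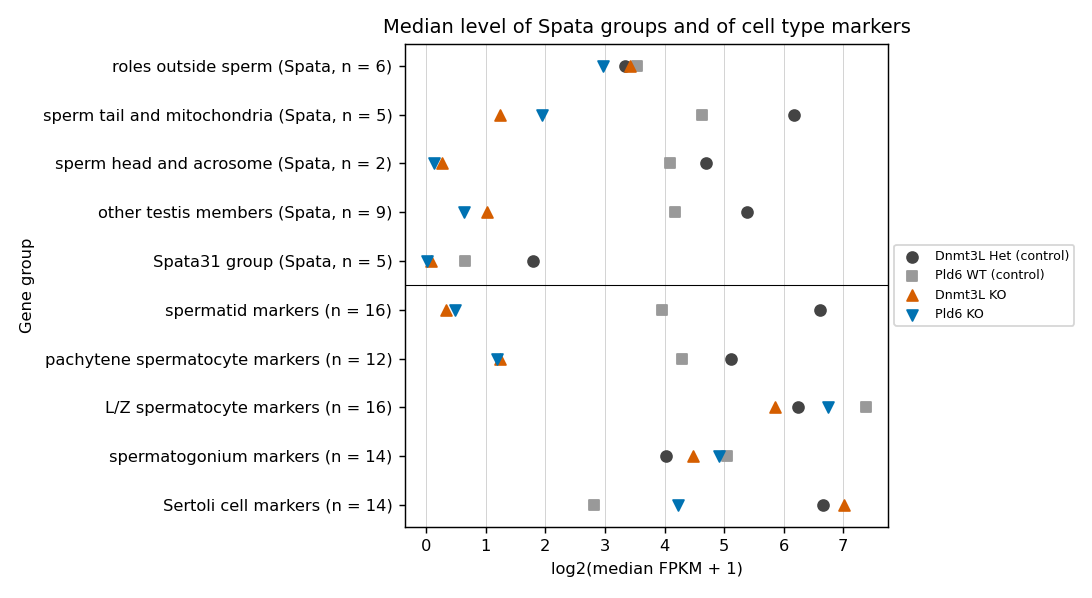
Median FPKM of the 5 role groups of Spata genes (above the line) and of the 5 marker lists (below it) in each library, as log2(median FPKM + 1) on the horizontal axis. The tail, head and other testis groups are lowest in the KO libraries, as are the spermatid and pachytene markers. The medians of the group with roles outside sperm (6.84 to 10.6 FPKM) stay close together. Single members of that group differ more, such as Spata7 (30.8 FPKM in Dnmt3L Het, 7.99 FPKM in Pld6 KO).

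The sequences just upstream of 4 members are shown because they are examples of both patterns, with no GENCODE M21 exon in the 250 bases before the RefSeq start. Spata4 and Spata31 were lower in both mutants, and Spata5l1 and Spata7 were not. They are read 5′ to 3′ on the strand of the gene from RefSeq (GRCm38.p6), all on the + strand, and capitals mark each CpG, the dinucleotide that carries DNA methylation. Their positions are chr8:54600531-54600780, chr13:64917156-64917405, chr2:122630375-122630624 and chr12:98627892-98628141.
Spata4: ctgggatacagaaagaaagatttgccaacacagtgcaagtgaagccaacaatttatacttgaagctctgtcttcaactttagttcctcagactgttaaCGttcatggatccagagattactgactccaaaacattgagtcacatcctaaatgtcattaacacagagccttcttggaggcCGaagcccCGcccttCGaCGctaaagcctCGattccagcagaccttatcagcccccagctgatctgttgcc
Spata31: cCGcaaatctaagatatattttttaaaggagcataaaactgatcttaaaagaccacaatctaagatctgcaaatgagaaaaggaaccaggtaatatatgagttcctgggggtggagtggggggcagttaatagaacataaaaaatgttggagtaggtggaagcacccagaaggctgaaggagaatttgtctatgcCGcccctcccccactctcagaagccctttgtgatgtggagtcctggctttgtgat
Spata5l1: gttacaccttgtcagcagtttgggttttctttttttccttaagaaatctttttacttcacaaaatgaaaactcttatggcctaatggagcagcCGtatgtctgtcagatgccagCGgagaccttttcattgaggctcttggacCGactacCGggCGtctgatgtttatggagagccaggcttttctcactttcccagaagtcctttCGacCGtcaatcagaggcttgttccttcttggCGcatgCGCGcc
Spata7: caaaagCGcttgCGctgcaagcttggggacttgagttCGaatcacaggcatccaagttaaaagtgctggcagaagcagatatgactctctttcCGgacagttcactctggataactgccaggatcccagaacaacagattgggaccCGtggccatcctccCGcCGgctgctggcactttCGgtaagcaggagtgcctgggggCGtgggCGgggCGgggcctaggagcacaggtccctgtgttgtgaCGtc
These stretches of 250 bases hold 6 CpG for Spata4, 2 for Spata31, 10 for Spata5l1 and 12 for Spata7. The RefSeq table gave a promoter window, from 250 bases before to 50 bases after the start, for 25 of the 27 members (30 windows, as some members have more than 1 start). No window was given for Spata2l or Spata24. The 19 windows of the 15 members that were lower in a mutant had a median of 4.0 CpG (1 to 48), the 11 windows of the other 10 members a median of 11.0 (0 to 36), and all 32851 windows of the table a median of 7.0 (0 to 67). The ranges of the members overlap over most of their width. The other 10 members are not all unchanged. They include Spata32 and the 4 Spata31d1 genes, which were at 12.0% of the control mean or less in both mutants. The windows of these genes held 0 to 11 CpG. The other testis members other than Spata1 had 1 to 8 CpG and the Spata31 group 0 to 5, whereas Spata1 had 46 and 48, Spata33 had 39, and Spata17 and Spata18 had 30 each, and these 4 members were lower in both mutants.

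**Figure D3:**
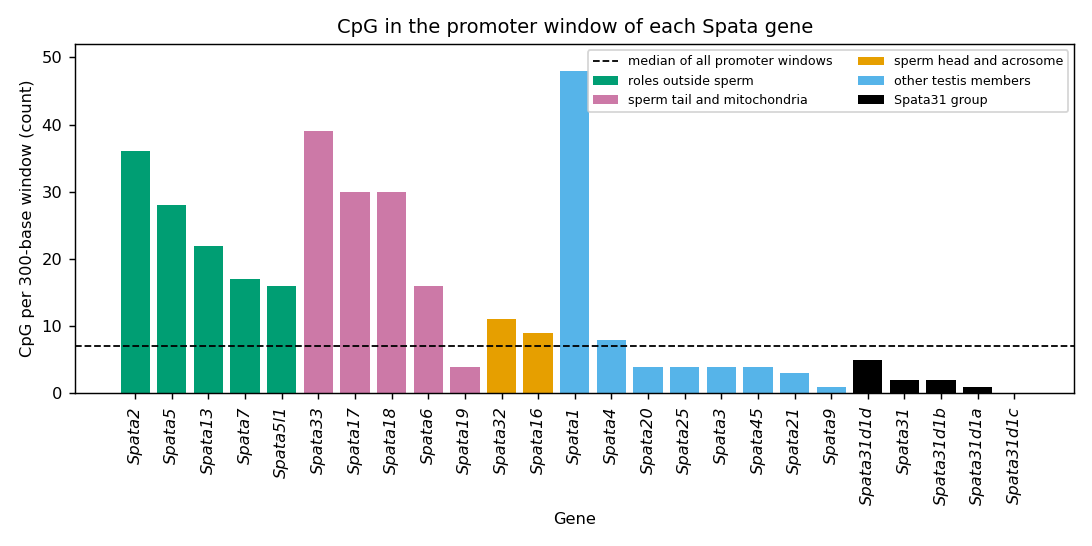
Count of CpG in the promoter window (300 bases) of each of the 25 Spata genes with a window, on the vertical axis, coloured by role; for genes with more than 1 window the highest count is drawn, and the dashed line is the median of 7.0 over all windows of the table. Members with roles outside sperm have 16 or more, and the tail group has both high counts (Spata33 with 39) and a low one (Spata19 with 4).

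The same windows were searched on both strands for 5 short motifs. The full cAMP response element TGACGTCA, which factors of the CREB and CREM family bind, was in 0 of 19 windows of the lower members and in 1 of 11 of the others, against 1.79% of all windows. That 1 window is Spata7's, where the element begins 7 bases before the start and so runs past the end of the sequence shown. The shorter TGACG, which any full element also contains, was in 4 of 19 windows (21.1%) of the lower members and in 5 of 11 (45.5%) of the others, beside 20.8% of all windows. The Spata5l1 sequence holds it in its reverse form, 40 bases before the start. The core GTTGCC of the RFX site was in 3 of 19 (15.8%) and 1 of 11 (9.09%) windows, beside 12.5% of all, and in the Spata4 sequence it lies in the last 6 bases before the start. The TATA box TATAAA was in 1 of 19 windows (5.26%), that of Spata4 at 199 bases before the start in its reverse form, and in 0 of 11, beside 13.6% of all. The MYB site CAGTTG was in 0 of 30 windows, beside 13.7% of all. The others again include genes that were low in the mutants. Their 1 window with GTTGCC is that of Spata31d1a, and Spata32 gives 1 of their 5 with TGACG. All of these are matches of letters and say nothing about whether a factor is bound.

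The members with roles outside sperm were within 2-fold of at least 1 control in both mutants on the FPKM + 1 scale. Spata5 encodes an AAA ATPase that releases a factor from the maturing large ribosomal subunit (chromosome 3, 37419903 to 37579096). It was the most abundant member in 3 libraries, at 208.7 FPKM in Pld6 WT, 97.0 FPKM in Dnmt3L KO and 188.9 FPKM in Pld6 KO, and ranked 5th in Dnmt3L Het at 110.9 FPKM. The Pld6 KO value lay between the controls, and the Dnmt3L KO value was just below the lower one. Its partner Spata5l1, a related ATPase, was at 6.35 and 7.33 FPKM in Dnmt3L Het and Pld6 WT, 9.58 FPKM in Dnmt3L KO and 5.69 FPKM in Pld6 KO, on either side of a narrow control range. Of 7 genes of large ribosomal subunit maturation around Spata5, 0 were beyond both controls in a mutant, with medians of -0.11 (Pld6 KO) and -0.44 (Dnmt3L KO) on the log2 scale. Nmd3, an export adaptor of that subunit, was at 116.4 and 151.3 FPKM in Dnmt3L Het and Pld6 WT, 87.0 FPKM in Dnmt3L KO and 117.1 FPKM in Pld6 KO. Eif6, the factor that keeps the subunits apart, was at 87.7, 93.6, 66.4 and 133.6 FPKM in the same order.

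Spata2 links the deubiquitinase CYLD to the linear ubiquitin ligase that acts in TNF signalling. It was at 11.9 FPKM in Dnmt3L Het and 14.0 FPKM in Pld6 WT, and at 20.2 FPKM in Dnmt3L KO and 20.7 FPKM in Pld6 KO. Both mutants were thus above both controls, by 1.44-fold (Dnmt3L KO) and 1.48-fold (Pld6 KO) over the higher one, short of 2-fold. Its paralog Spata2l, which also binds CYLD, was at 1.87 and 1.95 FPKM in Dnmt3L Het and Pld6 WT. In Dnmt3L KO it was at 1.08 FPKM and in Pld6 KO at 0.753 FPKM, 1.74-fold and 2.48-fold below the lower control. Both were also short of the rule, in Pld6 KO only because 1 FPKM is added. Of 9 other genes of this linear ubiquitin module that were in the table, 0 were beyond both controls in Pld6 KO and 1, the kinase gene Ripk1, was higher in Dnmt3L KO (13.5 FPKM against 6.20 and 5.71). Otulin, the linear ubiquitin protease, was at 39.3 to 44.2 FPKM in all libraries, and Rbck1, a subunit of the ligase, at 25.8 to 34.1 FPKM.

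Spata7 encodes a protein of the photoreceptor cilium that is mutated in retinal dystrophy. It stood at 30.8 FPKM in Dnmt3L Het, 13.9 FPKM in Pld6 WT, 9.78 FPKM in Dnmt3L KO and 7.99 FPKM in Pld6 KO. The controls differed from each other by 2.21-fold, and the mutants were below both, at 1.42-fold and 1.74-fold below the lower one. Spata13, an exchange factor for the small GTPases RAC1 and CDC42, had the highest change of the family, 1.09 on the log2 scale in Dnmt3L KO. It was at 4.21 and 2.69 FPKM in Dnmt3L Het and Pld6 WT, 8.48 FPKM in Dnmt3L KO and 5.19 FPKM in Pld6 KO, so both mutants were above both controls without passing 2-fold on the FPKM + 1 scale.

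Among the members of the tail and its mitochondria, Spata33 was the most abundant in 3 libraries, with Spata6 slightly above it in Dnmt3L KO. Its protein tethers the phosphatase calcineurin to mitochondria in the sperm midpiece. Spata33 (chromosome 8, 123212837 to 123222045) was at 277.6 FPKM in Dnmt3L Het, 134.8 FPKM in Pld6 WT, 18.7 FPKM in Dnmt3L KO and 48.1 FPKM in Pld6 KO. The mutants were below both controls, by 7.20-fold (95% counting interval 6.35 to 8.20) and 2.81-fold (2.53 to 3.11) against the lower one. Such intervals here are exact for fragment counts and cover counting error only. Spata2l lies 10209 bases from Spata33 on the same chromosome, and its levels are those given above.

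Spata19 encodes a mitochondrial protein needed for the mitochondrial sheath. It was at 116.0 FPKM in Dnmt3L Het, 23.6 FPKM in Pld6 WT, 0.470 FPKM in Dnmt3L KO and 0.319 FPKM in Pld6 KO. These mutant values rest on 11 and 5 fragments, 50.3-fold (27.8 to 101) and 74.0-fold (31.5 to 229) below the lower control. Spata18, also known for its part in mitochondrial quality control, was at 23.6 and 2.47 FPKM in Dnmt3L Het and Pld6 WT, 0.254 FPKM in Dnmt3L KO and 0.0181 FPKM (1 fragment) in Pld6 KO. The ratio to the lower control was 9.76-fold (6.19 to 16.2) for Dnmt3L KO and 137-fold (24.3 to 5440) for Pld6 KO, where a single fragment sets it. Spata17, which has calmodulin-binding IQ motifs, was at 22.1, 13.0, 1.36 and 2.87 FPKM in Dnmt3L Het, Pld6 WT, Dnmt3L KO and Pld6 KO, both mutants below both controls.

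Spata6 is needed to build the connecting piece between sperm head and tail. It retained more of its level than the others of this group, at 71.4 FPKM in Dnmt3L Het, 40.6 FPKM in Pld6 WT, 20.1 FPKM in Dnmt3L KO and 18.7 FPKM in Pld6 KO. The Pld6 KO lay 2.17-fold (2.04 to 2.31) and Dnmt3L KO 2.02-fold (1.91 to 2.13) below the lower control, on either side of the threshold once 1 is added to each FPKM. Of 7 other genes of head to tail coupling, 5 were lower in each mutant, with a median of -2.85 on the log2 scale in each. Odf2, a protein of the outer dense fibres, was at 258.0 and 128.5 FPKM in Dnmt3L Het and Pld6 WT, 48.3 FPKM in Dnmt3L KO and 40.0 FPKM in Pld6 KO. Oaz3, which like Odf1 of these coupling genes is also in the spermatid list, was at 153.8, 26.7, 3.07 and 3.75 FPKM in that order. Of 9 genes of the mitochondrial sheath and sperm calcineurin, 7 were lower in each mutant, among them Smcp, which is also in the spermatid list. The medians of the 9 were -4.34 (Pld6 KO) and -3.76 (Dnmt3L KO). The 2 that were not lower by the rule are Vdac3, a mitochondrial pore (438.4, 258.9, 421.6 and 170.5 FPKM), and Ppp3cc, the calcineurin subunit of testis (66.1, 75.1, 41.0 and 42.3 FPKM).

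Of the head and acrosome members, Spata16 is a Golgi and acrosome protein whose loss gives round-headed sperm. Spata16 (chromosome 3, 26637620 to 26983249) was at 40.5 FPKM in Dnmt3L Het and 31.8 FPKM in Pld6 WT, and at 0.118 FPKM (9 fragments) in Dnmt3L KO and 0.196 FPKM (10 fragments) in Pld6 KO. The controls were close to each other, and the mutants lay 269-fold (159 to 663) and 162-fold (98.9 to 380) below the lower control. Spata32, an acrosomal protein, was at 9.29 FPKM in Dnmt3L Het, 0.405 FPKM in Pld6 WT and 0.278 FPKM in Dnmt3L KO and had 0 fragments in Pld6 KO. It was thus high in 1 library of the 4, and at under 1 FPKM in Pld6 WT it could not be counted as lower by the rule. Of 8 other genes whose loss disturbs acrosome formation, 3 were lower in Pld6 KO and 2 in Dnmt3L KO, with medians of -0.07 and -0.55. Hsp90b1, a chaperone of the endoplasmic reticulum, was at 694.0 to 738.9 FPKM in the 4 libraries, and Agfg1, a protein of vesicle fusion in acrosome formation, at 28.9 to 39.6 FPKM.

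Spata4 had the largest change of the family in both mutants with 1 FPKM added, -6.23 (Pld6 KO) and -6.35 (Dnmt3L KO) on the log2 scale. This order rests on the added value. With 0.1 FPKM added, Spata4 was at -6.97 and -7.19, and larger changes were those of Spata3 (-8.05 in Pld6 KO) and Spata20 (-7.95 in Dnmt3L KO), among others. It lies on chromosome 8 (54600781 to 54610098), in 11.1% of its exon bases opposite the antisense gene 5330439A09Rik. Reads from such overlaps can be told apart only where counting used the strand, which is not stated, and this also touches Spata25 (21.5% of exon bases), Spata2l (11.6%, with Cdk10) and Spata5 (8.13%, with Nudt6). Its levels were 220.1 FPKM in Dnmt3L Het, 110.9 FPKM in Pld6 WT, 1.04 FPKM in Dnmt3L KO and 1.22 FPKM in Pld6 KO, so that both mutants held under 1% of the mean of the controls (0.626% and 0.736%). Spata24, whose protein binds the TBP-related factor of germ cells, was at 173.3, 73.0, 16.6 and 16.1 FPKM in Dnmt3L Het, Pld6 WT, Dnmt3L KO and Pld6 KO. Both mutants stood at 13.5% and 13.1% of the mean of the controls. Spata1 was at 50.5 and 60.3 FPKM in Dnmt3L Het and Pld6 WT, 15.0 FPKM in Dnmt3L KO and 23.4 FPKM in Pld6 KO.

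Spata45 was at 37.9 and 26.0 FPKM in Dnmt3L Het and Pld6 WT and at 0.0935 and 0.140 FPKM in Dnmt3L KO and Pld6 KO, a single fragment in each mutant. Spata20, a thioredoxin-like protein, was at 38.1 and 15.4 FPKM in these controls, 0.00884 FPKM (1 fragment) in Dnmt3L KO and 0.225 FPKM (17 fragments) in Pld6 KO. Spata3 was at 49.9 FPKM in Dnmt3L Het but 2.89 FPKM in Pld6 WT, with 1 fragment in Dnmt3L KO and 0 in Pld6 KO, at least 20.0-fold below Pld6 WT. For a library at 0 fragments the bound was set at 3 fragments in that library. These 3 genes were nearly silent in both mutants while the controls differed by 1.46-fold (Spata45), 2.48-fold (Spata20) and 17.3-fold (Spata3).

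Spata21, a calcium-binding EF-hand protein, was at 40.6 and 17.1 FPKM in Dnmt3L Het and Pld6 WT, 1.57 FPKM in Dnmt3L KO and 0.0955 FPKM in Pld6 KO. Spata9 was at 14.2 and 7.01 FPKM in these controls, 2.98 FPKM in Dnmt3L KO and 0.556 FPKM in Pld6 KO. In both genes the Dnmt3L KO kept more than Pld6 KO did. Spata25, which overlaps Zswim1 on the opposite strand, was at 7.03 and 2.07 FPKM in Dnmt3L Het and Pld6 WT, 0.109 FPKM (3 fragments) in Dnmt3L KO and 1.63 FPKM (30 fragments) in Pld6 KO, where it was 1.27-fold (0.791 to 2.07) below Pld6 WT.

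The 5 genes of the Spata31 group, whose founder acts in spermatid attachment to Sertoli cells, lie on chromosome 13. Spata31d1a, Spata31d1b and Spata31d1d stand side by side with 5696 and 6635 bases between them, and Spata31 (64917406 to 64923195) and Spata31d1c are 109862 bases apart. Spata31 was at 4.61 FPKM in Dnmt3L Het and 4.75 FPKM in Pld6 WT, from 907 and 587 fragments, and had 0 fragments in both mutants. It was at least 221-fold lower in Dnmt3L KO and at least 148-fold lower in Pld6 KO than in the lower control, Dnmt3L Het. The 4 Spata31d1 genes reached 1.43 to 3.32 FPKM in Dnmt3L Het, 0.146 to 1.08 FPKM in Pld6 WT, 0 to 0.151 FPKM in Dnmt3L KO and 0 to 0.139 FPKM in Pld6 KO. Because 1 FPKM is added, Spata31d1a, Spata31d1b and Spata31d1c, which were under 1 FPKM in Pld6 WT, could not pass the 2-fold rule whatever their fold. Spata31d1d, at 160 fragments in Pld6 WT, was 7.16-fold (4.71 to 11.3) and 7.79-fold (4.65 to 14.0) below it in Dnmt3L KO and Pld6 KO. Of the 50-base stretches of the longest Spata31d1a transcript, 20.0% also occur in Spata31d1b, and 24.9% of those of Spata31d1b occur in Spata31d1a, so their values are uncertain where reads could not be told apart. Spata31, Spata31d1c and Spata31d1d had no such stretch.

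**Figure D4:**
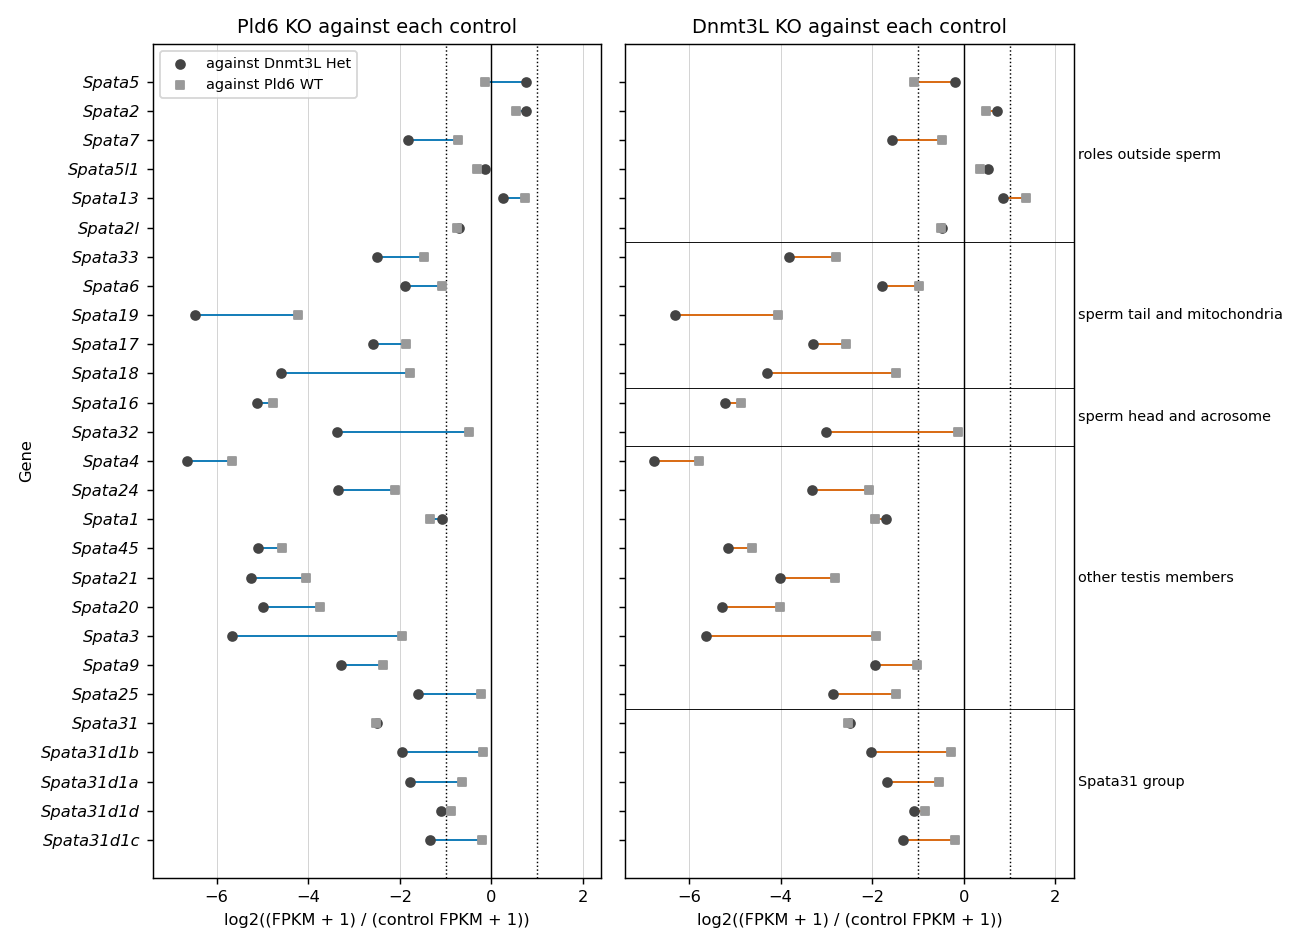
Difference of each Spata gene between a mutant and each control on the log2(FPKM + 1) scale, in Pld6 KO (left) and Dnmt3L KO (right); circles are against Dnmt3L Het, squares against Pld6 WT, the bar joins them, and dotted lines mark 2-fold. Members with both points left of the dotted line at -1 are the 15 that were lower in that mutant, and long bars (Spata3, Spata32, Spata18) are those whose controls differ most.

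The controls themselves differed for many members. In Dnmt3L Het 13 of 27 members were over 2-fold higher than in Pld6 WT on the FPKM + 1 scale and 0 were lower. Over all 23980 genes 11.1% were higher and 904 genes were lower. The widest differences among the members were 23.0-fold for Spata32, 17.3-fold for Spata3, 12.0-fold for Spata31d1b, 10.4-fold for Spata31d1c and 9.54-fold for Spata18. The spermatid markers differed the same way, with 13 of 16 higher in Dnmt3L Het, and their part in this was not tested. Spata31, Spata1, Spata2, Spata2l and Spata5l1 were near equal between the controls, at ratios of 0.838 to 0.969 of Dnmt3L Het to Pld6 WT. Spata5 had the lowest ratio, 0.531. Genotype, line and sort of the 2 controls cannot be told apart.

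The mutants were also set side by side. On the same 2-fold scale 2 members (Spata9 and Spata21) were higher in Dnmt3L KO than in Pld6 KO, 2 (Spata25 and Spata33) were lower, and 23 were neither, a scale on which members near 0 in both cannot differ, beside 9.43% of all genes higher and 4.28% lower. The ratio of Dnmt3L KO to Pld6 KO was 16.4 (7.81 to 41.5) for Spata21 and 5.35 (3.12 to 9.86) for Spata9. The ratio of Pld6 KO to Dnmt3L KO was 15.0 (4.65 to 76.5) for Spata25 and 2.57 (2.21 to 2.99) for Spata33. With 1 library per mutant these 4 differences exceed counting error, and there is no replicate to set them against. Other members that did not pass this scale also differed by more than counting error. Among them, Spata20 was 25.4-fold (3.98 to 1060) higher in Pld6 KO, from 17 fragments against 1. Spata18 was 14.0-fold (2.26 to 581) higher in Dnmt3L KO, from 21 fragments against 1. Spata5 was 1.95-fold (1.90 to 1.99) higher in Pld6 KO, and Spata24 was at a ratio of 1.03 (0.881 to 1.21) of Dnmt3L KO to Pld6 KO.

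As a test, edgeR's quasi-likelihood model was fitted on the fragments of all genes with the controls as the replicated group. At a Benjamini-Hochberg adjusted p of 0.05, 0 of 27 members passed in either mutant, and 0 of the 18657 genes tested passed (0%). The lowest adjusted p among members by edgeR was 0.102 (Pld6 KO) and 0.0967 (Dnmt3L KO), each shared by Spata4, Spata16, Spata20 and Spata31, and in Pld6 KO also by Spata21. With 1 residual degree of freedom, the controls' spread is poorly known. At an unadjusted p under 0.05 in the same model 17 members (Pld6 KO) and 18 members (Dnmt3L KO) were lower and 0 were higher, beside 7.41% and 7.72% of all genes tested that were lower. DESeq2 called 14 members (Pld6 KO) and 16 members (Dnmt3L KO) lower, beside 5.38% and 5.16% of all genes it tested. edgeR with no filter on low counts called 7 and 6 members lower, beside 2.09% and 2.06% of all genes, so the call depends on the tool and on the filter.

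The targeted genes served to check the labels. Pld6 was at 17.2 FPKM in Dnmt3L Het, 19.5 FPKM in Pld6 WT, 8.55 FPKM in Dnmt3L KO and 0.334 FPKM in Pld6 KO. Dnmt3l was low everywhere, at 1.27, 0.980, 0 and 0.432 FPKM in that order, with 0 fragments in Dnmt3L KO. Each gene was thus lowest where its own knockout is labelled. Fragments counted in genes ranged from 30439943 (Pld6 KO) to 63875934 (Dnmt3L Het).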

How the data were processed

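The authors aligned single-end reads of stranded polyA(+) libraries with TopHat to mm10 and quantified RefSeq genes with Cuffdiff (per the labels). Their versions and the strand setting of the counting are not given in the sources used here. The deposited table holds, for each of 23980 genes and each library, an estimated count of fragments and its FPKM, which the authors' tool scaled to gene length and depth. Of the estimated counts, 98.0% to 98.3% were whole numbers. The 2 other columns of values (scaled fragments) were not used. Of all values 31 were marked as failed, 0 of them for a member.

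From the FPKM the changes were computed with a pseudocount of 1 and a 2-fold rule against both controls. The estimated counts were rounded to whole numbers for edgeR 4.0.16 (R 4.3.3, TMM, filterByExpr, 3 groups, 1 residual degree of freedom, Benjamini-Hochberg over 18657 genes) and for DESeq2 1.42.0 as an alternative. The edgeR model was also run on simulated data. That outcome is not given here, so how well this design finds a change is not shown. Counting intervals (95%) are exact for rounded fragments and were scaled by the median FPKM of 1 fragment in each library. For the bounds, a library at 0 was set at 3 fragments. Both intervals and bounds cover counting error only. Reads carried no molecular identifiers, so copies of 1 molecule are counted separately, and the intervals can be too narrow even for counting error.

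The members, role groups, marker and partner lists and motifs were chosen with earlier results of these data known, from general knowledge. Members that reached 5 FPKM in a library (21) are given by value in each library. The other 6 are given by value where they are over 2-fold beyond both controls or are paralogs, and each partner list by counts and its 2 most abundant genes. Ripk1 was named after its values were seen. The partner genes that were not in the table were left out. Positions and promoters are from RefSeq (GRCm38.p6), exons and transcripts from GENCODE M21. The groups came from the genotype labels. The labels do not say whether libraries came from single animals. In the models with 3 groups the p-values rest on the spread between the 2 controls only, which differ in line and genotype.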

Additional observations from a re-analysis of the deposited data

How the results depend on the processing

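No paired analysis was possible because the replicate numbers only name the 2 controls and each mutant has 1 library. With a pseudocount of 0.1 FPKM the median change of the members was -3.09 in the Pld6 KO and -3.46 in the Dnmt3L KO, larger than with 1 FPKM by construction, since less is added to low values. With the controls left out in turn, the median was -1.33 to -2.49 in the Pld6 KO and -1.47 to -2.49 in the Dnmt3L KO. The smaller changes came without Dnmt3L Het, the library with the highest spermatid markers. The counts of members were 12 to 22 in each mutant over the 6 alternatives, within 1.5 times the count of 15. They are counts beyond both controls, or beyond the 1 kept where a control was left out. They were 20 with the pseudocount of 0.1 FPKM, 12 at 3-fold, and 17 and 18 with TMM-scaled fragments. All counted members were lower except 1, Spata13, higher in the Dnmt3L KO without Dnmt3L Het. The share of all genes that were lower was computed only for the filter on a mean of at least 1 FPKM (8.57% in Pld6 KO, 9.16% in Dnmt3L KO). The counts of the other alternatives have no such share to be set against. For edgeR, leaving out a control leaves no residual degree of freedom and was not run. In place of 0 calls among the members, DESeq2 gave 14 (Pld6 KO) and 16 (Dnmt3L KO), where 5.38% and 5.16% of all genes were lower, and edgeR with no filter on low counts gave 7 and 6, where 2.09% and 2.06% were. The cause was not tested. RLE size factors and both mutants as 1 group gave 0. The changes of single members were followed for those that reached 5 FPKM in a library. Of these, 0 of a called member changed sign in any alternative. A called member lies below each control, so leaving out a control or changing the pseudocount could not change its sign. Spata5 in the Pld6 KO, which was not called, was at -0.14 without Dnmt3L Het and 0.24 with both controls.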

Other observations

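Each member was also placed among all 23980 genes by its FPKM within a library, as a percentile. Spata5 stood at percentiles 95.6 and 98.4 in Dnmt3L Het and Pld6 WT, and at 95.3 and 98.5 in Dnmt3L KO and Pld6 KO. Spata33, the highest member in Dnmt3L Het (percentile 98.5) and next highest in Pld6 WT (97.2), was at 75.5 in Dnmt3L KO and 91.0 in Pld6 KO. Spata4 stood at percentiles 98.0 and 96.5 in the controls against 44.4 and 46.0 in the mutants, and Spata16 at 87.3 and 84.8 against 30.6 and 33.5. Spata24 and Spata1, which were lower in both mutants by the 2-fold rule, still stood at percentiles 71.8 to 80.7 there. Spata2 stood at percentiles 67.9 and 72.6 in the controls and at 76.8 and 79.0 in the mutants.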
